A study of Mus musculus with 16 samples.

Results

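The 9 genes described here were listed as markers or working parts of satellite glia: Fabp7, Kcnj10, Glul, Slc1a3, Gja1, Gfap, Cdh19, Sparc and Plekhb1. They were chosen by name, and each symbol matched 1 Ensembl gene in the deposited counts. The tables list 52636 genes, of which 21371 had enough counts to be tested, and 9 of the 9 passed that filter. RNA was sequenced from the dorsal root ganglia (DRGs) of 16 male C57BL/6J mice aged 3 to 4 months, 1 mouse per library, in 4 groups of 4. In the SNI groups, tibial spared nerve injury was performed on the sciatic nerve branches, and Sham mice were operated on but their nerve was left intact. Treatment began 4 weeks after surgery per the series' design (the methods section of the study gives months in place of weeks) and lasted 3 weeks. The DMI groups received desipramine, a tricyclic antidepressant that blocks noradrenaline reuptake, at 15 mg/kg i.p. 2 times per day, and the Saline groups received the vehicle. Surgery and treatment together give the groups SNI-Saline, Sham-Saline, SNI-DMI and Sham-DMI. DRGs of lumbar levels L3-6 made up 1 sample per mouse, and neurons of injured and of spared nerve branches were not separated.

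Satellite glia wrap the cell bodies of sensory neurons in the DRG. They take up potassium and glutamate released around the neuron, are joined to each other by gap junctions, and share a neural crest origin and many genes with Schwann cells. In nerve injury models they are known for a rise in glial fibrillary acidic protein and for changes in potassium channels and gap junctions.

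Reads on genes ran from 41194238 to 73920332 per library, which were 79.56% to 81.17% of the reads in a table. The lowest correlation of log2 CPM (TMM-scaled counts relative to library size) between replicates was 0.987. In the sample labels the tissue entry reads spinal cord, whereas the entry for cell type names dorsal root ganglia. The 12 sensory neuron markers summed to between 14716 and 19666 CPM per library and the 11 spinal cord markers to between 16.9 and 45.2 CPM. Library numbers run from 17 to 24 in the DMI groups and from 33 to 40 in the Saline groups, and each surgery forms a run of its own within them, so an effect of library order cannot be told apart from DMI or from injury.

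Levels per exon length spanned more than 2 orders of magnitude among the 9 genes. Fabp7, a fatty acid binding protein of glial cells, had a mean of 200.4 FPKM over the 16 libraries, and Sparc, a secreted matrix protein, had 198 FPKM. Glul, the glutamine synthetase, followed with 103 FPKM, and Plekhb1, a membrane protein with a pleckstrin homology domain, with 74.3 FPKM. Cdh19, a cadherin of neural crest glia, stood at 17.4 FPKM and Kcnj10, the inward rectifier potassium channel Kir4.1, at 14.6 FPKM. Gja1, the gap junction protein connexin 43, had 2.11 FPKM, the glutamate transporter Slc1a3 (GLAST) 1.91 FPKM and the intermediate filament gene Gfap 0.814 FPKM. Libraries of neighbouring genes in this order overlapped for Fabp7 with Sparc, Cdh19 with Kcnj10, and Gja1 with Slc1a3. The other neighbours did not overlap in FPKM in any pair of the 16 libraries. The highest Gfap library (1.54 FPKM) came close to the lowest Slc1a3 library (1.58 FPKM), and the highest Plekhb1 library (91.2 FPKM) to the lowest Glul library (92.7 FPKM). Among the tested genes ranked by mean CPM, Sparc stood at the 99.5th percentile and Gfap at the 38.9th.

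**Figure D1:**
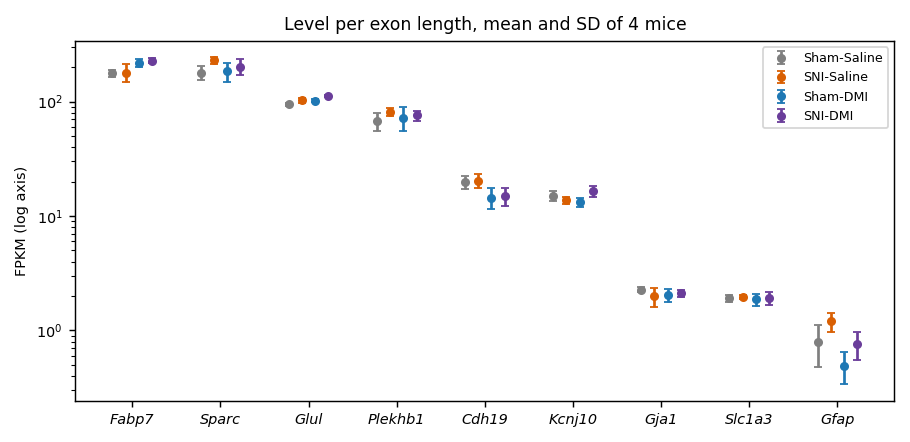
Mean FPKM (log axis) of the 9 satellite glia genes in the 4 groups, with the SD of 4 mice as the error bars. Fabp7 and Sparc lie near 200 FPKM and Gfap near or below 1 FPKM in each group, and Gfap shows the widest spread between groups on this axis.

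Upstream sequences are shown for Fabp7, Kcnj10 and Gfap, since the differences between groups described below involve these genes. They come from RefSeq on GRCm38.p6, are written 5′ to 3′ on the gene's strand, and end before the first base of the RefSeq start or of an annotated exon. Capitals mark the CCAAT box, searched as CCAAT on both strands (ATTGG where it lies on the other strand). Fabp7 is shown at chr10:57784673-57784880 (plus strand), Kcnj10 at chr1:172340960-172341209 (plus strand) and Gfap at chr11:102897201-102897450 (minus strand). The Gfap window lies inside the span of the GENCODE gene, whose longest transcript starts further upstream.
Fabp7: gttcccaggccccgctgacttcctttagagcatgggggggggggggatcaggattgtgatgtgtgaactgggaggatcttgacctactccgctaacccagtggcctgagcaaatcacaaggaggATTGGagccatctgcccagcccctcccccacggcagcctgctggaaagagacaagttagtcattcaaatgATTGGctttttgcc
Kcnj10: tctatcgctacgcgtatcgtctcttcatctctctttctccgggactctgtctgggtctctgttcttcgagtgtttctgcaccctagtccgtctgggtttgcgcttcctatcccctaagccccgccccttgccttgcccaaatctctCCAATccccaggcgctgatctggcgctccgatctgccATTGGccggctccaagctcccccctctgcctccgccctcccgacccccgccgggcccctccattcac
Gfap: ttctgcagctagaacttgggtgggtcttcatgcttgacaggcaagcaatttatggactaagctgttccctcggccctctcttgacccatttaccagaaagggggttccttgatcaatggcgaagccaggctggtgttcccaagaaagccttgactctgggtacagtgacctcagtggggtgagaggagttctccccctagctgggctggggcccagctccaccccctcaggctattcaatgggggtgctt
The windows of Fabp7 and Kcnj10 each hold 2 matches to CCAAT and the window of Gfap none. Of 32851 RefSeq windows of 250 bases, 33.8% hold at least 1, and the stretch of Fabp7 printed here has 208 bases. On both strands, TATAAA (the TATA box) was also searched and is in 12.4% of the windows. The core of SOX binding sites, ACAAAG, is in 16.5% of the windows. The STAT site, TTCNNNGAA, is in 7.02% of the windows, and none of these 3 motifs is in the windows printed here.

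To ask what injury did in the absence of the drug, SNI-Saline was compared with Sham-Saline. No satellite glia gene passed the adjusted p of 0.1 (0 of 9, edgeR), against 12% of the tested genes. Sparc came closest, with a log2 fold change of 0.36 and an adjusted p of 0.102. At an unadjusted p under 0.05, 3 of the 9 were counted, namely Glul, Gfap and Sparc, each with the higher mean in SNI-Saline, against 23% of the tested genes. DESeq2 called these 3, against 21.7% of the genes it tested. The median log2 fold change of the 9 was 0.03, beside -0.001 for all tested genes.

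DMI in the sham-operated mice was compared with saline in the sham-operated mice. Fabp7 rose, and Gfap and Cdh19 fell, so that 3 of 9 passed, against 23.4% of the tested genes. DESeq2 called these 3 and Glul, against 27.8%. At an unadjusted p under 0.05, Glul and Kcnj10 were counted as well, the first with the higher and the second with the lower mean under DMI, which makes 5 of 9 against 30.6%. The median log2 fold change of the 9 was -0.03, beside -0.02 for all tested genes.

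To ask what DMI did after injury, SNI-DMI was compared with SNI-Saline. Fabp7 rose, and it was the 1 gene of the 9 to pass, against 2.93% of the tested genes. At an unadjusted p under 0.05, Fabp7, Kcnj10 and Glul had the higher mean under DMI and Gfap and Cdh19 the lower, which is 5 of 9 against 18.5% of the tested genes. DESeq2 called these 5, against 11.2%. The median of the 9 was -0.02 (log2), beside -0.005 for all tested genes, since genes with higher and lower values stood side by side.

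Injury under the drug was read from SNI-DMI against Sham-DMI. None of the 9 passed (0 of 9, edgeR), against 0.402% of the tested genes. The unadjusted p was under 0.05 for Kcnj10, Glul and Gfap, each with the higher mean in SNI-DMI, which is 3 of 9 against 12.1%. DESeq2 called Kcnj10, against 2.61%. The mean was higher in SNI-DMI for 9 of 9 genes, beside 50.2% of all tested genes, with log2 fold changes from 0.04 to 0.62.

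The difference between the DMI effect after SNI and that after sham was tested for each gene. None of the 9 passed in edgeR (0 of 9) or in DESeq2, against 0% of the tested genes in edgeR and 0.0656% in DESeq2. The unadjusted p was under 0.05 for Kcnj10 alone among the 9 and for 7.92% of the tested genes. SNI-Saline libraries enter both the injury comparison under saline and the DMI comparison after SNI, with opposite signs, and Sham-DMI libraries enter the DMI comparison after sham and the injury comparison under DMI in the same way. Sham-Saline libraries are the reference of both comparisons that involve them, and SNI-DMI libraries are the numerator of both of theirs. The 2 DMI comparisons share no library, and neither do the 2 injury comparisons.

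**Figure D2:**
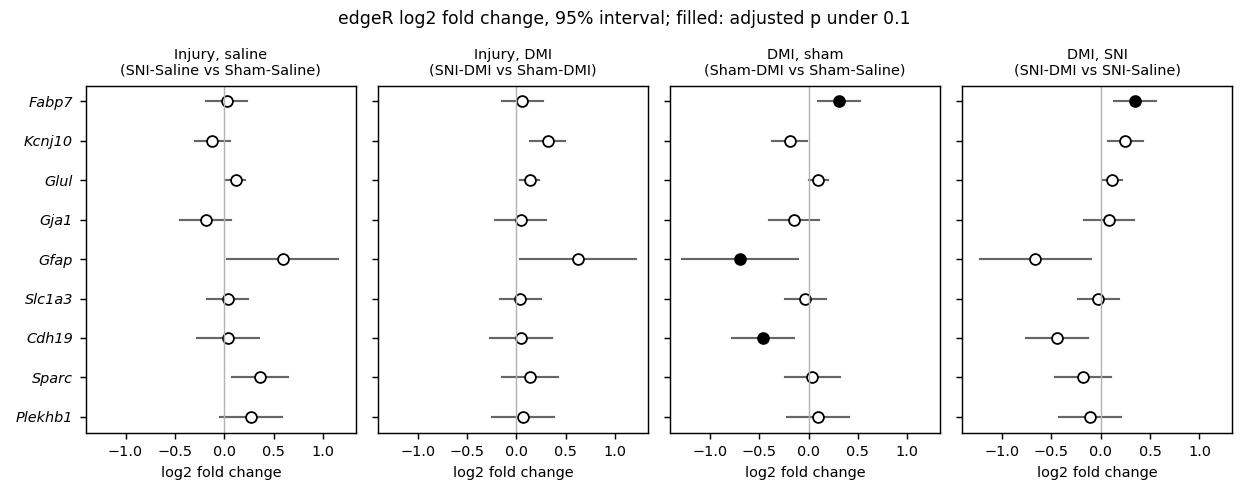
Log2 fold change of each satellite glia gene in the 4 comparisons between groups (edgeR, 16 libraries), with the 95% interval as the line and a filled point where the adjusted p was under 0.1. Fabp7 lies to the right and Gfap and Cdh19 to the left of 0 in both DMI panels, and Kcnj10 changes side between them.

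Fabp7 (ENSMUSG00000019874, chr10:57784881-57788450, GRCm38) carries fatty acids in the cytoplasm and is among the most used markers of satellite glia. It measured 219.8, 239, 203 and 221 CPM in the Sham-Saline libraries and 259.55, 258, 179 and 200.2 CPM in the SNI-Saline libraries. Under DMI the values were 276, 240.0, 292 and 284 CPM after sham and 286, 263, 290.5 and 298 CPM after SNI. Each Sham-DMI library was above each Sham-Saline library and each SNI-DMI library above each SNI-Saline library, with the SNI-Saline mice falling into a higher and a lower pair. The lower pair, SNI-Saline 3 and 4, also had the highest sums of spinal cord markers of the 16 libraries (36.9 and 45.2 CPM). They had the highest sums of myelin genes in their group as well (7483 and 7333 CPM). The part of these tissues in the Fabp7 values was not tested. A gap without overlap in the higher direction was seen in 8.62% of the tested genes after sham and in 7.33% after SNI. DMI raised Fabp7 by 0.31 ± 0.097 (SE) on the log2 scale after sham (1.24-fold, adjusted p = 0.0388). After SNI the rise was 0.34 ± 0.097 (SE) on the log2 scale (1.27-fold, adjusted p = 0.0973). The difference between both effects was 0.04, with a 95% interval from -0.26 to 0.34. The call after SNI was lost with upper-quartile normalization (adjusted p = 0.102), with the replicate number as a block (0.125), with GC and length trends removed (0.118) and in 12 of 16 fits that left out 1 library, among them those without SNI-Saline 3 or SNI-Saline 4, where the log2 fold change was 0.24 and 0.29. No tested gene passed in the fits without SNI-DMI 1, SNI-DMI 2, SNI-DMI 3, SNI-Saline 1 or SNI-Saline 3. Apart from the last of these, the log2 fold change of Fabp7 there was not smaller, at 0.352, 0.376, 0.35 and 0.433. The call after sham was lost in the fit without Sham-Saline 3, where the adjusted p was 0.101. Injury left the mean of Fabp7 at 221 ± 14.4 CPM in Sham-Saline and 224 ± 40.6 CPM in SNI-Saline (SD, n = 4 each), a log2 difference of 0.02 with a 95% interval from -0.19 to 0.23.

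Other lipid and retinoid binding proteins of the same family were listed with it, and 7 of the 8 were tested. After SNI in saline-treated mice, 3 of the 7 rose, led by Fabp5 with a log2 fold change of 0.26 (adjusted p = 0.0314), and 7 of 7 had the higher mean. Of all tested genes 12% were called there, in both directions together, and 49.9% had the higher mean. DMI after sham raised 3 of the 7, led by Fabp3, the heart type of the family, which went from 38.8 ± 2.2 to 49.3 ± 5.12 CPM (adjusted p = 0.00422). Over all tested genes 23.4% were called in that comparison. After SNI, none of the 7 passed in edgeR or DESeq2 under DMI, and 1 had an unadjusted p under 0.05.

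Kcnj10 (ENSMUSG00000044708, chr1:172341210-172374085) encodes Kir4.1, the channel through which satellite glia clear potassium from around the neuron. It was at 92.0, 80.8, 76.1 and 76.2 CPM in Sham-Saline and at 79.1, 79.4, 69.4 and 70.7 CPM in SNI-Saline. It was at 66.7, 79.5, 72.2 and 66.1 CPM in Sham-DMI and at 88.0, 80.8, 83.4 and 102 CPM in SNI-DMI. The SNI-DMI libraries were above each SNI-Saline and each Sham-DMI library, which held in 7.33% and 2.89% of the tested genes, whereas the Sham-DMI and Sham-Saline libraries overlapped. Under DMI the log2 change was -0.19 ± 0.082 (SE) after sham (adjusted p = 0.118) and 0.25 ± 0.081 (SE) after SNI (adjusted p = 0.126), neither past the threshold. The difference between the 2 DMI effects was 0.44 ± 0.115 (SE) on the log2 scale, with a 95% interval from 0.19 to 0.69. Its adjusted p over all tested genes was 0.619 in edgeR and 0.257 in DESeq2, so it did not pass. The same numbers set the injury effect apart by treatment, with a log2 change of -0.12 under saline and 0.32 under DMI (adjusted p = 0.396 and 0.133). Leaving out 1 library at a time kept the difference between 0.35 and 0.49.

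Among 11 further genes of potassium and water handling, 4 fell under DMI after sham, led by the inward rectifier Kcnj2 with a log2 change of -0.76 (adjusted p = 0.0106), and 10 of 11 had the lower mean. Of all tested genes 23.4% were called in either direction and 46.7% had the higher mean. After injury under saline 2 of the 11 fell, against 12% of the tested genes called in either direction. They were led by Kcnj6 at -1.002 (adjusted p = 0.045), a channel gene that did not exceed 1.43 CPM in any group mean. Atp1b2, a glial subunit of the sodium-potassium pump, was also higher in SNI-DMI than in Sham-DMI. Its mean was 62.5 ± 2.67 CPM in Sham-DMI and 80.0 ± 8.6 CPM in SNI-DMI, a rise of 0.36 on the log2 scale (adjusted p = 0.0662). Kcnj16, which can pair with Kcnj10 in 1 channel, was at 7.27 ± 0.145 CPM in Sham-Saline and between 6.13 and 6.93 CPM in the other group means, and passed in none of the comparisons. After SNI, DMI gave no call among the 11 in edgeR or DESeq2, with 2 at an unadjusted p under 0.05.

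Glul (ENSMUSG00000026473, chr1:153899944-153909723) turns glutamate into glutamine in the glial cell. Its libraries read 328, 308, 318 and 309.6 CPM in Sham-Saline and 354, 322, 335 and 357 CPM in SNI-Saline. They read 336, 328, 334 and 355 CPM in Sham-DMI and 367, 366, 376 and 375 CPM in SNI-DMI. The order of the group means was Sham-Saline, Sham-DMI, SNI-Saline and SNI-DMI, and each SNI-DMI library was above each library of the other 3 groups. The share of tested genes without overlap in that direction was 7.33% against SNI-Saline and 2.89% against Sham-DMI. Each Sham-DMI library was also above each Sham-Saline library, as in 8.62% of the tested genes. The 4 comparisons gave log2 fold changes between 0.10 and 0.13, each with an SE of 0.044, and adjusted p between 0.125 and 0.242, so none passed in edgeR. DESeq2 put 3 of the 4 below 0.1, namely those against Sham-Saline and that of DMI after SNI. Of the exon bases of Glul, 209 are shared with the overlapping genes Mir8114 and Teddm2, and reads there may be split or left out.

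Slc1a3 (ENSMUSG00000005360, chr15:8634124-8710764) takes up glutamate into glia. Its libraries lay between 13.5 and 18.6 CPM, and the 4 group means between 15.96 and 16.7 CPM. No comparison separated the groups, the largest log2 change being 0.04, with 95% intervals from -0.24 to 0.25 over the 4 comparisons. The list of 11 other genes of glutamate handling gave no call for injury under saline in edgeR or DESeq2, with 1 at an unadjusted p under 0.05. Under DMI the second glial glutamate transporter, Slc1a2 (GLT-1), passed as lower after both surgeries, with overlapping groups after SNI. It went from 9.75 ± 0.554 to 6.77 ± 0.674 CPM after sham (log2 change -0.52, adjusted p = 0.0201) and from 10.6 ± 2.95 to 7.56 ± 0.564 CPM after SNI (log2 change -0.49, adjusted p = 0.0999). The 2 highest of the SNI-Saline libraries, SNI-Saline 3 and 4 with 11.98 and 14.2 CPM against 8.08 and 8.32 CPM in the other two, also had the highest sums of spinal cord markers of the 16 libraries (36.9 and 45.2 CPM), whose part in the Slc1a2 values was not tested. The call after SNI was lost without SNI-Saline 1, SNI-Saline 3, SNI-DMI 1, SNI-DMI 2 or SNI-DMI 3, since no tested gene passed in those fits. Slc1a2 was not read in the other fits without 1 library, so whether its call held there is not known. Without SNI-Saline 4, 38 tested genes passed. The glutaminase Gls2 rose by 0.22 on the log2 scale under DMI after sham (adjusted p = 0.0637).

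Gja1 (ENSMUSG00000050953, chr10:56377330-56402513) is the connexin most often named in the gap junctions between satellite glia. It ranged from 14.7 to 25.1 CPM over the 16 libraries, the lowest being SNI-Saline 2. The log2 change was -0.19 for injury under saline (95% interval from -0.44 to 0.07) and between -0.15 and 0.08 in the other 3 comparisons, where the lowest of these, for DMI after sham, turned to 0.03 with GC and length trends removed. Of 11 further connexin and pannexin genes, none passed in any of the 5 tests in edgeR or DESeq2. Gjc3, a connexin of myelinating glia, was the 1 gene of the 11 with an unadjusted p under 0.05 in both comparisons that involve the Sham-DMI group, with 41.2 ± 6.19 CPM there and 48.3 ± 2.65 CPM in Sham-Saline.

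Gfap (ENSMUSG00000020932, chr11:102887336-102900912) encodes the filament that marks reactive glia. The Sham-Saline libraries had 3.63, 5.07, 2.94 and 1.84 CPM and the SNI-Saline libraries 4.58, 4.43, 4.80 and 6.49 CPM. The Sham-DMI libraries had 1.95, 1.73, 1.60 and 3.03 CPM and the SNI-DMI libraries 3.21, 2.80, 2.41 and 4.43 CPM. The SNI group was the higher of each pair and the DMI group the lower, and the groups overlapped in each of the 4 comparisons. Under DMI, Gfap fell after sham by 0.69 on the log2 scale with an SE of 0.268 (adjusted p = 0.0863), which is 0.618 of the saline level. After SNI the log2 change was -0.66 ± 0.26 (SE, adjusted p = 0.186). The difference between both effects was 0.03, with a 95% interval from -0.77 to 0.84. For injury the log2 change was 0.59 ± 0.259 (SE, adjusted p = 0.178) under saline and 0.62 ± 0.269 (SE, adjusted p = 0.367) under DMI.

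The call for Gfap after sham was lost in 9 of 16 fits without 1 library, and without Sham-Saline 2 the log2 change was -0.43 (adjusted p = 0.293). SNI-Saline 4, the library with the most Gfap, also had the highest sum of the 11 spinal cord markers (45.2 CPM, against 16.9 to 36.9 CPM in the others). In that library 7 of the 11 markers were at their highest of the 16 libraries. Among them Mobp, a myelin gene of oligodendrocytes, reached 23.7 CPM, Mog 0.749 CPM (at most 0.268 CPM elsewhere), the inhibitory neuron genes Slc32a1 and Slc6a5 0.596 and 0.52 CPM, and Olig2 0.29 CPM (at most 0.0755 CPM elsewhere). Over the 11 markers, of which 5 were tested, 1 was called higher for injury under saline (Olig1, log2 change 1.33) and 1 lower for DMI after SNI (Mobp, -1.83). Among all tested genes 12% and 2.93% were called in these comparisons. Without SNI-Saline 4, the Gfap log2 change was 0.45 for injury under saline and -0.52 for DMI after SNI. The part of central nervous tissue in the Gfap values was not tested.

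Of 11 other genes of glial reactivity, 3 rose and 2 fell after injury under saline, against 12% of the tested genes called. Vim, the filament that pairs with Gfap, led the first with a change from 438 ± 22.3 to 602 ± 10.6 CPM (adjusted p = 0.0129), and Cd44 led the second with -0.27 on the log2 scale (adjusted p = 0.0473). DMI after sham raised 2, led by Vim with 0.23 on the log2 scale (adjusted p = 0.0885), against 23.4% of the tested genes called in either direction. Lcn2 fell by 1.11 on the log2 scale (adjusted p = 0.0277), an acute phase gene at 2.14 ± 0.962 CPM in Sham-Saline. After SNI none of the 11 passed under DMI in edgeR, with 2 at an unadjusted p under 0.05, and DESeq2 called 2 lower, Lcn2 and Socs3. For SNI-DMI versus Sham-DMI none passed in edgeR, with 3 at an unadjusted p under 0.05, and DESeq2 called Timp1 higher. Vim and Gfap stood on opposite sides of 0 under DMI after sham.

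Cdh19 (ENSMUSG00000047216, chr1:110888326-110977584) is a cadherin of Schwann cell precursors and satellite glia. It was at 101, 83.2, 81.05 and 75.4 CPM in Sham-Saline and at 78.9, 76.3, 101 and 93.2 CPM in SNI-Saline. It was at 43.3, 70.1, 63.7 and 70.6 CPM in Sham-DMI and at 65.0, 53.0, 59.2 and 79.5 CPM in SNI-DMI. Each Sham-DMI library was below each Sham-Saline library, which 8.51% of the tested genes showed, and SNI-DMI 4 alone of its group reached into the SNI-Saline range. Cdh19 fell under DMI after sham by 0.46 on the log2 scale with an SE of 0.144 (adjusted p = 0.0366). After SNI the log2 change was -0.44 ± 0.144 (SE, adjusted p = 0.124), and DESeq2 put it at an adjusted p of 0.0414. The difference between both was 0.02, with a 95% interval from -0.43 to 0.46. Injury gave 0.03 under saline and 0.05 under DMI.

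The longest transcript of Cdh19 has 37.35% GC. With trends on GC content and length removed from each library, its log2 change under DMI was -0.19 after sham (adjusted p = 0.3) and -0.23 after SNI (adjusted p = 0.352). Without Sham-DMI 1 the change after sham was -0.30 (adjusted p = 0.126) and without Sham-Saline 1 it was -0.35 (adjusted p = 0.131). Fabp7, at 42.61% GC, had 0.34 after sham (adjusted p = 0.0372) and 0.40 after SNI with the trends removed, and its call after SNI was then lost (adjusted p = 0.118). Of 6 other cadherin genes, Cdh2 fell under DMI after sham (log2 change -0.28, adjusted p = 0.029), and Cdh11 fell after injury under saline (-0.29, adjusted p = 0.0516). After SNI none of the 6 passed under DMI in edgeR or DESeq2, with 1 at an unadjusted p under 0.05, and 6 of 6 had the lower mean. Over all tested genes 49% had the higher mean there.

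**Figure D3:**
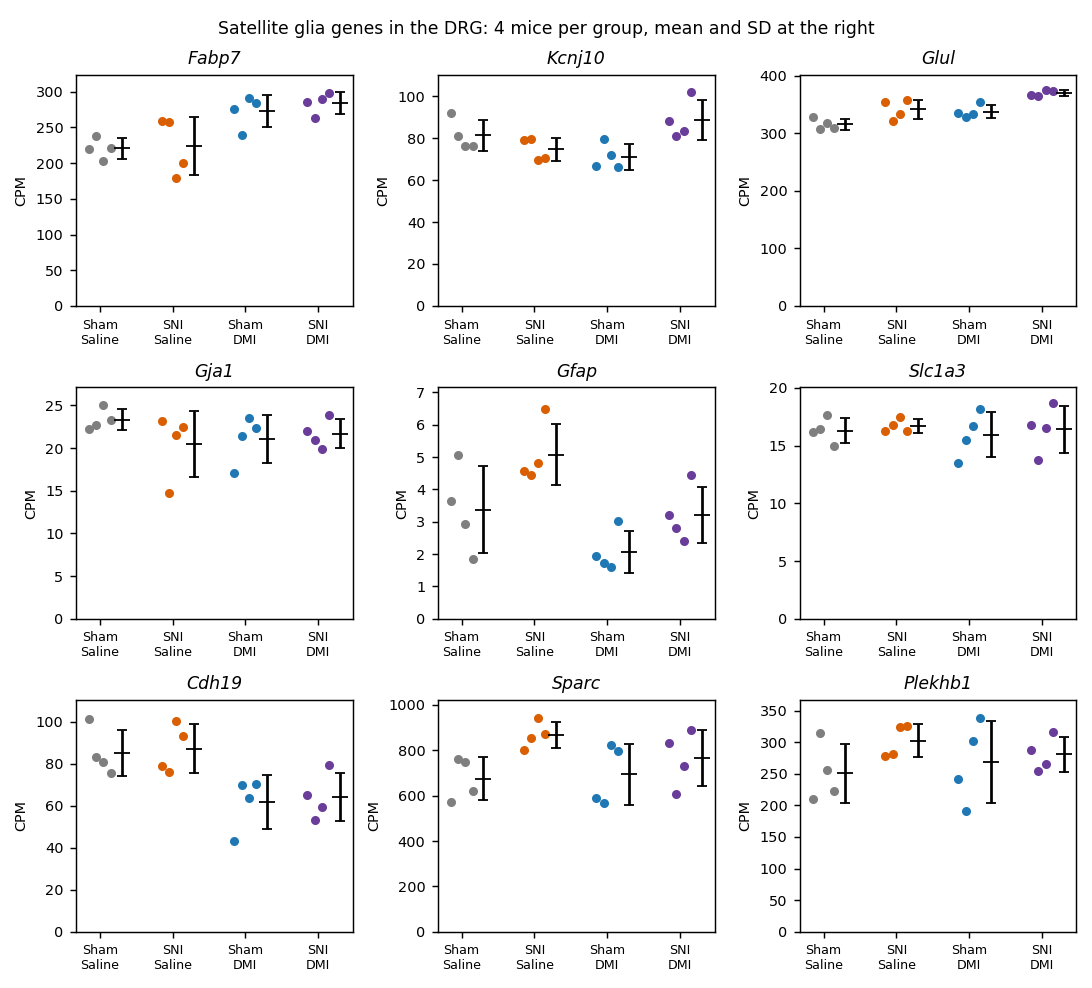
CPM of each satellite glia gene in the 16 libraries, by group, with 4 mice per group as points and the mean and SD beside them. Fabp7 is higher and Cdh19 lower under DMI, Gfap is highest in SNI-Saline and lowest in Sham-DMI, and Kcnj10 is highest in SNI-DMI.

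Sparc (ENSMUSG00000018593, chr11:55394500-55423183) is secreted by glia, fibroblasts and vessels and binds collagen. Its libraries had 572, 762, 748 and 621 CPM in Sham-Saline and 800.4, 855, 944 and 870.05 CPM in SNI-Saline. Under DMI it had 589.7, 567, 825 and 796 CPM after sham and 831, 608, 732 and 890.1 CPM after SNI. The SNI-Saline libraries were above each Sham-Saline library, as in 7.67% of the tested genes, while both DMI groups spread over most of the range. The log2 change for injury under saline was 0.36 ± 0.13 (SE, adjusted p = 0.102), under DMI it was 0.14 (adjusted p = 0.692), and their difference was -0.22 with a 95% interval from -0.62 to 0.18. The value under saline passed in DESeq2 (adjusted p = 0.0393) and in 6 of 16 fits without 1 library.

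Plekhb1 (ENSMUSG00000030701, chr7:100642892-100662414) ranged from 191 to 338 CPM, with both ends of the range in the Sham-DMI group. Its log2 change was 0.27 for injury under saline (95% interval from -0.04 to 0.58, adjusted p = 0.273) and between -0.11 and 0.10 in the other 3 comparisons. Of 7 relatives of Sparc, Sparcl1 rose after injury under saline by 0.20 on the log2 scale (adjusted p = 0.0959) and 2 fell, led by Spock1 at -0.25 (adjusted p = 0.043). The share of all tested genes called in that comparison was 12%. Spock3, a testican, fell under DMI after sham (log2 change -0.22, adjusted p = 0.0149) and after SNI (-0.21, adjusted p = 0.0903).

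Sparc and Plekhb1 varied between mice together with the genes of myelin. After the group means were removed, the correlation of Plekhb1 with the mean of 10 myelinating Schwann cell genes was r = 0.967 (permutation p = 3e-05) and rho = 0.959 (permutation p = 7e-05) over 16 libraries. Without the 2 libraries farthest from the median, r was 0.955. For Sparc the values were r = 0.934 and rho = 0.938 (permutation p = 6e-05 for each), and r was 0.928 without the 2 farthest libraries. Adjusted over the 153 relations of the 9 genes with list means, p was 0.00459 for r and 0.00535 for rho in both genes. The correlation of Sparc with the mean of 8 fibroblast genes was r = 0.832 (permutation p = 0.00031, adjusted p = 0.0158) and rho = 0.8 (permutation p = 0.00093, adjusted p = 0.0382), with r = 0.818 after the same omission. Plekhb1 had r = 0.814 (permutation p = 0.00092, adjusted p = 0.0352) and rho = 0.835 (permutation p = 0.001, adjusted p = 0.0382) with these fibroblast genes. Its r was 0.859 after that omission. Fabp7 had r = 0.0973 (permutation p = 0.709) and rho = 0.268 (permutation p = 0.335) with the myelin genes, and Kcnj10 r = -0.273 (permutation p = 0.359) and rho = -0.193 (permutation p = 0.502).

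**Figure D4:**
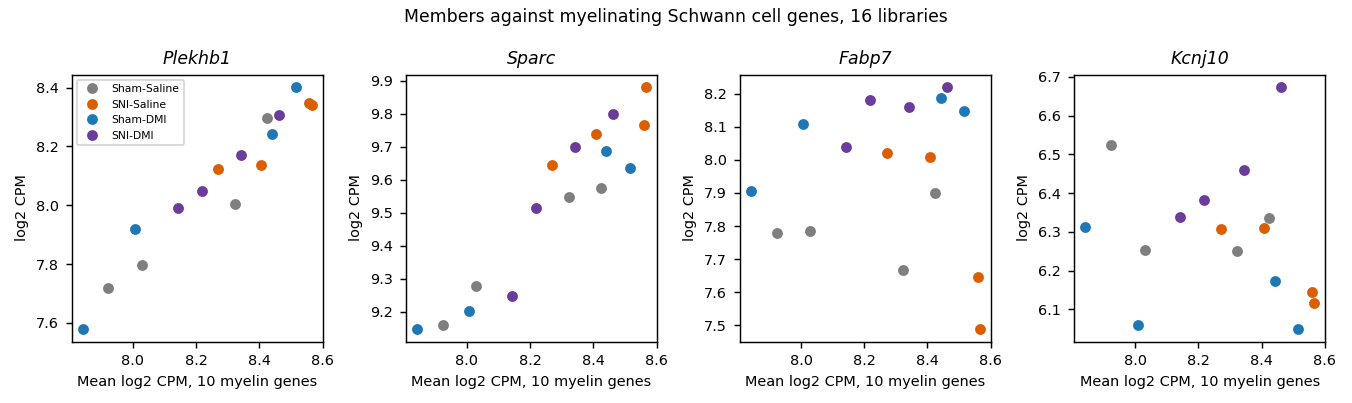
Log2 CPM of Plekhb1, Sparc, Fabp7 and Kcnj10 against the mean log2 CPM of 10 myelinating Schwann cell genes in the 16 libraries, coloured by group. Plekhb1 and Sparc are higher in libraries with more myelin signal, with few exceptions within the groups, whereas the DMI libraries of Fabp7 form a band above the saline libraries at like myelin levels.

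The summed CPM of the 10 myelin genes was 4743 to 6755 in the Sham-Saline mice and 6277 to 7483 in the SNI-Saline mice, and under DMI it was 4435 to 7447 after sham and 5385 to 6650.0 after SNI. In the injury comparison under saline, 10 of 10 had the higher mean with a median log2 change of 0.26, and none passed in edgeR, while 3 had an unadjusted p under 0.05 and DESeq2 called 1. A higher mean was found in 49.9% of all tested genes. The part of myelinating Schwann cells or of fibroblasts in the Sparc and Plekhb1 values was not tested. In bulk tissue, fewer cells of a type and less RNA per cell cannot be told apart, for satellite glia as for Schwann cells.

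Among the 36 pairs of the 9 genes, the within-group correlation over 16 libraries ran from -0.29 to 0.87 with a median of 0.295. The closest pair was Plekhb1 with Sparc (r = 0.871, permutation p = 0.00028, rho = 0.915, permutation p = 0.00022), with adjusted p of 0.0101 and 0.00792 over the 36 pairs and r = 0.863 without the 2 farthest libraries. Slc1a3 with Sparc had r = 0.812 (permutation p = 0.004, adjusted p = 0.072) and rho = 0.841 (permutation p = 0.00217, adjusted p = 0.0391). With the mean of 12 further satellite glia genes, described below, Slc1a3 had the highest r of the 9. Its r was 0.843 (permutation p = 0.00304, adjusted p = 0.0775) and its rho 0.682 (permutation p = 0.0135, adjusted p = 0.165). Fabp7 and Cdh19 had r = -0.669 over the 16 libraries as they stand and -0.268 with the group means removed.

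Across all 16 libraries, group differences included, the genes with the most similar log2 CPM were described by Pearson's r among 15749 genes of at least 1 CPM. Fabp7 was closest to Snx3 (0.905), Ccdc155 (0.899) and Ptgir (0.897), and Cdh19 to Itgb8 (0.946), Txndc16 (0.941) and Erbin (0.935). Kcnj10 was closest to Sox6 (0.839), Fbln2 (0.812) and Zc3hav1 (0.8), and Gfap to Rab32 (0.862), Nrep (0.84) and Cfap43 (0.836). Plekhb1 had the highest value of the 9, with Fam178b (0.989), then Ndrg1 (0.966) and Mlip (0.964), and Sparc was closest to Sema3b (0.962), C1qtnf6 (0.949) and Dhh (0.945). Glul was closest to Nop2 (0.938), Tamm41 (0.883) and Catsperz (0.872), and Slc1a3 to B3gnt5 (0.866), Add3 (0.862) and Efemp1 (0.86). Gja1 had the lowest values, with Gm6206 (0.765), Gm43272 (0.757) and Nfib (0.727).

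A list of 12 further genes of satellite glia, not counted among the 9, was read in the same fits. After injury under saline 2 of the 12 rose, and 11 of 12 had the higher mean. The shares over all tested genes were 12% called, in either direction, and 49.9% with the higher mean. Dbi, the acyl-CoA binding protein that also acts on GABA receptors, went from 175 ± 15.5 to 219.6 ± 13.5 CPM (adjusted p = 0.017), and Apoe, the main lipid carrier of these cells, from 1422 ± 72.5 to 1777 ± 160.2 CPM (adjusted p = 0.0341). DMI after sham raised 3 of the 12, led by Dbi with 0.27 on the log2 scale (adjusted p = 0.0125). It lowered 2, led by Erbb3, the neuregulin receptor of neural crest glia, with -0.24 (adjusted p = 0.062). Of all tested genes 23.4% were called under DMI after sham. After SNI none of the 12 passed under DMI in edgeR or DESeq2, with 2 at an unadjusted p under 0.05. For SNI-DMI versus Sham-DMI none of the 12 passed in edgeR or DESeq2. There 6 of the 12 had an unadjusted p under 0.05, each higher in SNI-DMI, against 12.1% of the tested genes. The mean was higher in SNI-DMI for 11 of 12, beside 50.2% of all tested genes, with a median log2 change of 0.19.

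Markers of the other cells of the DRG moved as follows in the DMI comparisons, in which Fabp7, Gfap or Cdh19 were called. Injury under saline is given as well, although none of the 9 passed there in edgeR. Over all tested genes, edgeR called 23.4% for DMI after sham, 2.93% for DMI after SNI and 12% for injury under saline. Under DMI after sham, 5 of 12 sensory neuron markers rose, led by Stmn2 with 0.25 on the log2 scale (adjusted p = 0.00671), and their sum ran from 14716 to 16073 CPM in Sham-Saline and from 16123 to 19666 CPM in Sham-DMI. Also 5 of 8 injured neuron markers rose, led by Ecel1 (log2 change 1.24), with sums of 297 to 332 CPM and 358 to 399 CPM. The sums hide differences between mice of the Sham-DMI group. Ecel1 was at 3.79, 6.29, 2.85 and 4.65 CPM in Sham-DMI 1 to 4, each above the highest Sham-Saline library (2.46 CPM). Sprr1a was at 1.81, 12.2, 1.67 and 9.19 CPM, with at most 2.06 CPM in Sham-Saline. Only Sham-DMI 2 and 4 exceeded that range for Sprr1a. Of 5 nonmyelinating Schwann cell markers 2 fell, led by Cadm2 (log2 change -0.57), of 8 macrophage markers 1 fell (Mrc1, -0.40), and of 8 endothelial markers 1 fell (Flt1, -0.47). No mural, fibroblast or myelinating Schwann cell marker passed in that comparison in edgeR or DESeq2, with 0, 2 and 0 at an unadjusted p under 0.05. The part of these cells in the Fabp7, Gfap and Cdh19 values was not tested. Under DMI after SNI, where Fabp7 was called, 1 nonmyelinating Schwann cell marker rose (Ncam1, 0.28) and 1 fell (Cadm2, -0.44), and none of the sensory neuron, injured neuron, macrophage, fibroblast, endothelial, mural or myelinating markers passed in edgeR, with 1, 1, 1, 0, 1, 0 and 0 at an unadjusted p under 0.05 and 1 injured neuron marker called by DESeq2. Injury under saline raised 7 of 8 injured neuron markers, led by Ecel1 (3.16), 3 of 8 macrophage markers, led by Cd68 (0.77), 2 of 12 sensory neuron markers, led by Stmn2 (0.23), and 1 of 8 fibroblast markers (Apod, 0.36), and lowered 2 of 5 nonmyelinating Schwann cell markers, led by Scn7a (-0.30).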

How the data were processed

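The data are counts per Ensembl gene in 16 DRG libraries, 1 mouse each, 4 mice per group. The authors isolated RNA with TRIzol, made libraries with a stranded mRNA kit and sequenced paired reads of 50 bases. The pipeline NGS-Data-Charmer aligned them to mm10, and the submitters' processing notes name HISAT2, HTSeq and DESeq2. The counter's strand setting and the annotation release are not given in the sources used here. The deposited values are raw counts, whole and not normalized. The 5 closing lines of reads without a gene were left out (18.83% to 20.44% of the reads in a table).

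Genes were matched to GENCODE M21 on GRCm38 (52489 of 52636 genes, and 9 of 9 satellite glia genes). Counts were filtered by filterByExpr, scaled by TMM and fitted over the 16 libraries with glmQLFit and glmQLFTest in edgeR 4.0.16 (R 4.3.3), with 1 coefficient per group. Adjusted p-values are Benjamini-Hochberg values over 21371 genes with a threshold of 0.1. CPM are TMM-scaled, FPKM divide them by the exon length in kilobases, and log2 CPM has a prior count of 2. Intervals use the SE and 12 residual degrees of freedom. Correlations were tested with 100000 permutations within groups, for which 1e-05 is the smallest possible p. The procedure was tested on simulated data for SNI-Saline versus Sham-Saline with 200 changed genes among 21371. It called 72.5% of them, and 82.9% of those changed by a log2 of 1 or more, and 9.9% of its calls were false. No estimated change of the 9 genes reached a log2 of 1. These rates therefore do not give the chance of detecting changes as small as theirs.

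Alternatives were no filter, at least 10 counts in every library, upper-quartile and DESeq2 size factors, a replicate block, DESeq2 1.42.0, the libraries of each comparison alone, removal of GC and length trends with mgcv 1.9.3 (basis size 8), and each library left out in turn. Figures used python 3.11.15 and matplotlib 3.10.9. Replicates differed beyond sampling noise, with a chi-square per gene of 7.33 to 29.58 over 24 pairs. This is a mean over genes, so it does not give the spread of a single gene. With 1 library per mouse, differences between mice and between library preparations cannot be told apart in it. Promoter sequences are from RefSeq, which gave entries for 8 of the 9 genes. The 9 genes and the lists were chosen with earlier results of these data known. The named genes are the 9, for each list the gene with the smallest p in each direction among those past the threshold in a comparison, and the 3 genes most correlated with each of the 9. Kcnj16, Gjc3, Apoe, Socs3, Timp1, Sprr1a and the spinal cord markers other than Olig1 and Mobp were named after their values were seen.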

Additional observations from a re-analysis of the deposited data

Results flagged for a closer look

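The effect of DMI on Kcnj10 differed between the surgeries before correction. The log2 change under DMI was -0.19 after sham and 0.25 after SNI, and their difference was 0.44 (edgeR, unadjusted p = 0.00127). The adjusted p over 21371 genes was 0.619, so the difference fails the correction. The SNI-DMI libraries were higher than the SNI-Saline libraries in 4 of 4 mice, whereas 1 of the 4 Sham-DMI libraries reached into the Sham-Saline range. No library stood apart by Dixon's test in any of the 36 groups of 4 values (9 genes in 4 groups), where chance would flag about 1 group in 20.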

How the results depend on the processing

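The counts of satellite glia genes past the threshold moved with the settings. For SNI-Saline versus Sham-Saline the count of 0 became 1 (Sparc) with no filter, with at least 10 counts in every library, with DESeq2 size factors, with the replicate block and with the libraries of the comparison alone. It became 2 with upper-quartile normalization (Glul and Sparc) and 3 in DESeq2, and ran from 0 to 3 when 1 library was left out, with 3 without Sham-Saline 2. For SNI-DMI versus SNI-Saline the count of 1 became 2 with no filter, 0 with upper-quartile normalization, with the replicate block and with GC and length trends removed, 5 in DESeq2 and 4 with the libraries of the comparison alone. It ran from 0 to 3 without 1 library. For Sham-DMI versus Sham-Saline the count of 3 became 2 with GC and length trends removed (Fabp7 and Gfap). With the libraries of the comparison alone Gfap no longer passed (edgeR, adjusted p = 0.148). Glul passed in addition with DESeq2 size factors and in DESeq2, and Kcnj10 with at least 10 counts in every library. Without 1 library the count ran from 1 to 4, with 1 without Sham-Saline 3 and 1 without Sham-DMI 1. For SNI-DMI versus Sham-DMI the count of 0 became 1 with no filter and in DESeq2 (Kcnj10) and ran from 0 to 1. For the difference it was 0 in each of these fits.

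Over all tested genes, injury under saline gave 2571 calls, 1299 with GC and length trends removed and 682 to 3286 without 1 library. DMI after SNI gave 626, with 172 under the replicate block, 1843 in DESeq2, 1812 with the libraries of the comparison alone, 73 with the trends removed and 0 to 1842 without 1 library. DMI after sham gave 5010, with 3210 with the trends removed and 3286 to 6094 without 1 library. SNI-DMI versus Sham-DMI gave 86, with 310 with no filter, 505 in DESeq2, 9 with its own libraries alone and 17 to 850 without 1 library. The difference gave 0, with 16 in DESeq2 and 0 to 1 without 1 library. The share of higher calls in DMI after SNI was 45%, 35.9% with upper-quartile normalization and 69.9% with the trends removed, and in DMI after sham it was 49.4% and 62% with the trends removed. The cause was not tested.

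The sign of some values turned, and the largest of those in the main analysis was -0.15, for Gja1 under DMI after sham. With GC and length trends removed, DMI after SNI gave 0.035 for Slc1a3, DMI after sham gave 0.033 for Gja1, 0.065 for Slc1a3 and -0.005 for Sparc, and the difference was -0.03 for Slc1a3 and -0.045 for Cdh19. With upper-quartile normalization the difference was 0 for Glul, -0.013 for Slc1a3 and -0.004 for Cdh19, and it was -0.006 for Slc1a3 with DESeq2 size factors and in DESeq2. Without 1 library, injury under saline ran from -0.04 to 0.122 for Fabp7, 0.0 to 0.087 for Slc1a3 and -0.035 to 0.137 for Cdh19. DMI after SNI ran from -0.029 to 0.161 for Gja1 and -0.092 to 0.049 for Slc1a3. DMI after sham ran from -0.083 to 0.059 for Slc1a3, -0.04 to 0.144 for Sparc and -0.017 to 0.248 for Plekhb1. SNI-DMI versus Sham-DMI ran from -0.059 to 0.109 for Gja1, -0.046 to 0.117 for Slc1a3, -0.101 to 0.132 for Cdh19 and -0.06 to 0.181 for Plekhb1. The difference ran from -0.061 to 0.107 for Fabp7, -0.013 to 0.039 for Glul, -0.237 to 0.26 for Gfap, -0.082 to 0.08 for Slc1a3 and -0.138 to 0.095 for Cdh19. Of the other values of the 9 genes, 312 kept their direction and side of the threshold under the remaining settings and 618 without 1 library, while 23 and 25 passed the threshold there alone and 5 and 24 no longer passed it.

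Nothing in the sample labels says that the replicate numbers pair mice. Libraries with the same number in the groups compared had correlations of -0.081 to 0.184 in their deviations from the group means. Differently numbered libraries were not compared in this way, so these values cannot decide whether mice were matched. With the number as a block, Sparc passed for injury under saline (adjusted p = 0.0972) and Fabp7 no longer passed for DMI after SNI (adjusted p = 0.125), and no other gene of the 9 changed sides. The SD between the 4 mice of a group ran from 1.4% (Glul) to 40% (Gfap) of the mean CPM, so a given fold change was harder to detect in Gfap than in Glul.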
